A study of Arabidopsis thaliana with 27 samples.

Results

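The raffinose family oligosaccharide genes described here are 8 genes of Arabidopsis thaliana that make or break down the galactose-bearing sugars of seeds. They were chosen by name and not by a threshold on their values: the galactinol synthase genes GOLS1 and GOLS2, the raffinose synthase gene RS5, the stachyose synthase gene STS (also called RS4), the seed imbibition genes SIP1 and SIP2, and the alpha-galactosidase genes AGAL1 and AGAL2. They make up 8 of the 33612 genes in the count table, and all 8 held enough counts to stand among the 20465 genes that were tested. Transcripts of whole seeds were counted by sequencing of poly(A) RNA at 12, 24 and 48 h of darkness. The series asks how the noncoding RNA HID1 acts in germination under phytochrome B (phyB), a receptor of red light, and germination itself was not analysed here. Each of 3 genotypes, the wild type Col-0 (WT), the mutant hid1 and the mutant phyB, gave 3 biological replicates at each time, or 27 libraries in 9 groups. Plants of all genotypes were grown together and harvested on the same date. All seeds, wild-type ones included, were dried for about 2 months, saw white light for 1 h during plating and then a red pulse of 5 min at 20 μmol m-2 s-1 that activates phyB. The labels name no mutant allele. The tissue is given as seeds only, so that in these bulk samples fewer cells of a type and less RNA per cell cannot be told apart.

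Galactinol synthases join galactose from UDP-galactose to myo-inositol, and raffinose and stachyose synthases pass the galactose of galactinol on to sucrose and to raffinose. The products, the raffinose family oligosaccharides, build up as seeds mature and dry, and are used early in germination, when alpha-galactosidases remove the galactose again. SIP1 and SIP2 belong to the same protein family as raffinose synthases, and SIP2 is known as an alkaline alpha-galactosidase that acts on raffinose, while AGAL1 and AGAL2 belong to the acid alpha-galactosidases.

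Library totals lay between 14750212 and 26293148 counts. HID1 held 2, 0 and 1 counts over the 3 hid1 libraries at 12, 24 and 48 h, against means of 24.5, 15.9 and 10.9 CPM (counts scaled to library size) in WT. PHYB transcripts were still counted in phyB, at means of 56.7, 69.7 and 112 CPM at 12, 24 and 48 h against 117, 125 and 95.4 CPM in WT. At 48 h the phyB libraries (103 to 117 CPM) lay above those of WT (93.7 to 96.9 CPM), so the PHYB level is no check of the label phyB there. The phyB libraries labelled 12 h stood apart from the other libraries of that time, with 0.0178 to 0.0202% of counts on mitochondrial genes against 0.0764 to 0.160% in WT and hid1, and all libraries labelled 24 h held 0.0151 to 0.0280%. The phyB libraries labelled 24 h held 0.0195 to 0.0246%, so both phyB groups lay in the range of the libraries labelled 24 h. The group mean of phyB labelled 24 h ranked genes more like WT at 12 h (Spearman's rho 0.970) than like WT at 24 h (0.945), which is a description across genes. That of phyB labelled 12 h also ranked genes more like WT at 12 h (0.952) than like WT at 24 h (0.942). Against phyB at 48 h, rho was 0.960 for phyB labelled 24 h and 0.912 for phyB labelled 12 h. The order was the same within WT (0.820 for 24 h and 0.721 for 12 h) and within hid1 (0.9685 and 0.926). Whether the labels 12 h and 24 h of phyB were exchanged cannot be told from these values, so results that use these 6 libraries follow the labels, values with the labels exchanged are given here or in the closing section for those that changed sign or call, and the comparisons at 48 h do not use them.

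CPM values below are scaled by TMM library sizes, each mean is over 3 libraries and is followed by its SD, and differences are on the log2 scale with their standard error. A gene rose, fell or was called where the Benjamini-Hochberg adjusted p of edgeR's two-sided quasi-likelihood test over all 20465 genes was under 0.05. The test measures change against the spread of the replicates, and most genes changed in most comparisons. In WT 3 of the 8 genes rose from 12 to 24 h and 3 fell, while 33.1% of all genes tested rose and 32.4% fell. WT from 24 to 48 h had 2 that rose and 5 that fell, against 44.2% and 38.0% of all genes. In hid1 seeds 3 rose and 4 fell from 12 to 24 h (30.0% and 28.9% of all genes), and 4 rose and 2 fell from 24 to 48 h (31.5% and 28.4%). In phyB seeds 5 rose and 2 fell from 12 to 24 h as labelled (27.7% and 27.2%), and 4 rose and 2 fell from 24 to 48 h (31.0% and 30.8%). Scaling by total counts, in place of TMM, turned the split into 5 and 3 for WT from 12 to 24 h and into 2 and 4 for phyB from 24 to 48 h. It also shifted the median change over all genes from 0.00 to 0.26 in the former and from 0.00 to -0.46 in the latter. Since most genes changed with time, these counts do not set the 8 genes apart, and the description below rests on sizes and directions.

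Between genotypes, hid1 and WT differed little at first. At 12 h 1 gene was higher in hid1 and 2 were lower, with 7.49% of all genes higher and 5.91% lower. At 24 h 3 were higher and 0 lower, with 8.46% and 6.87% of all genes, and scaled by total counts 3 were higher and 1 lower. At 48 h 6 were higher and 1 lower, with 36.3% and 43.0% of all genes, and the median difference was 0.97 over the 8 genes and -0.06 over all genes tested. With the scaling of DESeq2 the split at 48 h was 6 and 2. In phyB against WT the counts were 2 higher and 4 lower at 12 h (30.0% and 34.2% of all genes), 3 higher and 5 lower at 24 h (31.8% and 34.6%) and again 3 higher and 5 lower at 48 h (40.0% and 49.4%), where the median was -0.55 over the 8 genes and -0.24 over all genes. Between hid1 and phyB at 48 h, 5 genes were higher in hid1 and 3 lower, with 41.0% and 37.9% of all genes. The comparisons of hid1 and phyB with WT share their WT libraries, so their values are set side by side and not correlated.

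The difference of a mutant from WT itself changed with time. For hid1 it changed upward in 3 of the 8 genes and downward in 1 from 12 to 24 h (6.77% and 7.15% of all genes), and upward in 6 and downward in 1 from 24 to 48 h (30.5% and 32.1%). For phyB it changed upward in 4 and downward in 2 from 12 to 24 h as labelled (30.3% and 31.3%), and upward in 3 and downward in 3 from 24 to 48 h (35.4% and 36.5%).

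**Figure D1:**
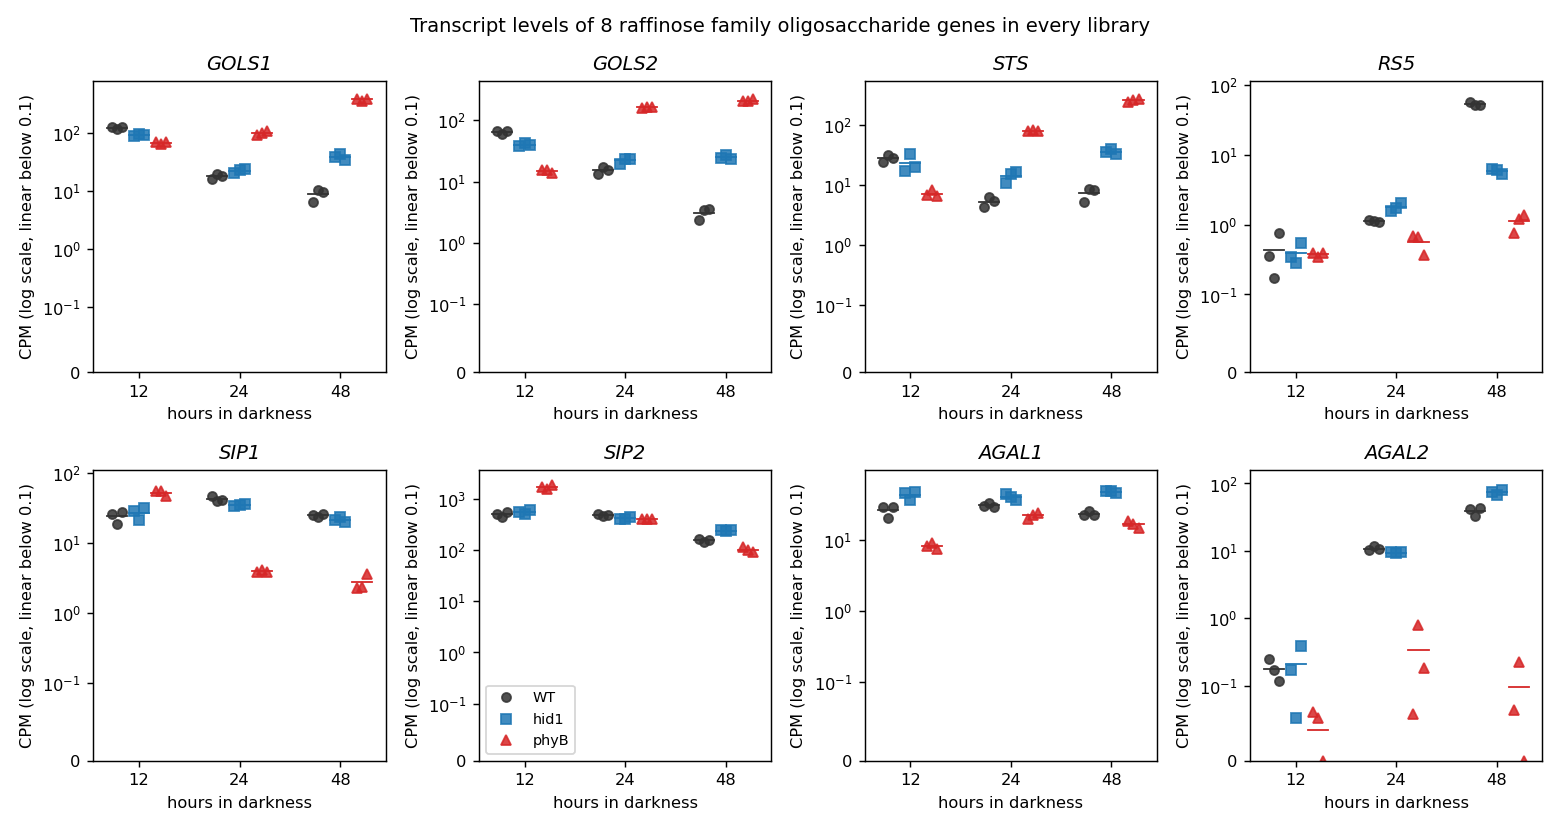
TMM-scaled CPM (log scale, linear below 0.1) of the 8 genes in each of 27 libraries against hours in darkness; points are libraries and short lines are means of 3. GOLS1, GOLS2 and STS were highest in phyB at 48 h (means 371, 211 and 255 CPM), RS5 was highest in WT at 48 h (53.4 CPM), and AGAL2 was near 0 in all phyB groups.

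The galactinol synthase genes fell in WT seeds over the 3 times, and at 48 h stood higher in hid1 and higher still in phyB. GOLS1 (AT2G47180, chromosome 2, bases 19368798 to 19370478, minus strand in TAIR10.1) is a galactinol synthase gene known in Arabidopsis for its activity in seeds and in drought and heat. In WT the 3 libraries held 124, 113 and 127 CPM of GOLS1 at 12 h, 16.1, 19.3 and 18.2 CPM at 24 h, and 6.35, 10.5 and 9.48 CPM at 48 h. In hid1 they held 88.0, 93.8 and 90.1 CPM at 12 h, 19.9, 23.1 and 23.4 CPM at 24 h, and 37.9, 43.2 and 33.6 CPM at 48 h. The WT libraries of each later time all lay below those before, while the hid1 libraries at 48 h lay above those at 24 h and above every WT library of the same time. The phyB libraries held 68.5, 62.7 and 68.5 CPM at the label 12 h, 92.0, 96.7 and 106 CPM at the label 24 h, and 381, 351 and 382 CPM at 48 h, the highest of all groups and without overlap with any other. GOLS1 in hid1 was thus -0.42 ± 0.10 from WT at 12 h (adjusted p = 0.0037), missed the threshold at 24 h (0.31 ± 0.12, adjusted p = 0.076, and 0.0172 with the 2 groups fitted alone), and was 2.13 ± 0.12 higher at 48 h, or 4.37-fold (adjusted p = 2.9e-15). In phyB at 48 h it was 5.41 ± 0.12 above WT, or 42.4-fold, and 3.28 ± 0.10 above hid1.

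GOLS2 (AT1G56600, chromosome 1, bases 21207537 to 21209635, plus strand) encodes another galactinol synthase. GOLS2 held 67.8, 59.0 and 67.0 CPM in WT at 12 h, 13.5, 17.3 and 15.6 CPM at 24 h, and 2.40, 3.45 and 3.52 CPM at 48 h. In hid1 it held 38.6, 43.2 and 39.1 CPM at 12 h, 19.6, 23.7 and 23.6 CPM at 24 h, and 23.9, 27.5 and 23.7 CPM at 48 h. WT therefore lost more than hid1 did: at 12 h all hid1 libraries lay below WT, and at both later times all lay above. The phyB libraries held 15.7, 15.4 and 13.8 CPM at the label 12 h, 162, 166 and 165 CPM at the label 24 h, and 208, 204 and 220 CPM at 48 h. At 48 h the hid1 level was 8.04-fold that of WT (3.01 ± 0.12, adjusted p = 1.8e-18) and the phyB level 67.7-fold (6.08 ± 0.11, adjusted p = 7.0e-26). GOLS2 in hid1 did not pass the test from 24 to 48 h (0.17 ± 0.09, adjusted p = 0.12), whereas in WT it fell by 2.32 ± 0.12, and the difference between these changes was 2.48 ± 0.16 (adjusted p = 2.7e-13).

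At the label 12 h phyB held less GOLS1 and GOLS2 than WT (-0.87 ± 0.10 and -2.11 ± 0.09), and at the label 24 h more (2.46 ± 0.11 and 3.41 ± 0.09). With the labels exchanged, the GOLS1 difference from WT was -0.30 at 12 h and 1.90 at 24 h, both called, and that of GOLS2 was 1.35 at 12 h and -0.05 at 24 h, so the order of GOLS2 before 48 h rests on the labels. GOLS2 in phyB rose by 0.36 ± 0.08 from 24 to 48 h, and scaled by total counts the change was -0.13 (adjusted p = 0.161). GOLS1 and GOLS2 were not in a fixed proportion, and their ratio of counts within a library does not depend on scaling between libraries. The log2 ratio of GOLS1 to GOLS2 counts was 0.91 ± 0.03, 0.21 ± 0.05 and 1.48 ± 0.11 in WT at 12, 24 and 48 h, and 1.17 ± 0.04, -0.01 ± 0.03 and 0.61 ± 0.09 in hid1. In phyB it was 2.16 ± 0.15 and -0.74 ± 0.09 at the labels 12 h and 24 h, the highest and the lowest of the 9 groups, and 0.82 ± 0.05 at 48 h. The 3 libraries of the phyB group labelled 24 h were the only ones of the 9 groups in which every library held more GOLS2 than GOLS1.

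The stachyose synthase gene moved with the galactinol synthase genes at 48 h. STS (AT4G01970, chromosome 4, bases 853922 to 857401, minus strand) encodes the enzyme that adds a further galactose to raffinose. STS held 24.4, 31.3 and 28.3 CPM in WT at 12 h, 4.37, 6.21 and 5.30 CPM at 24 h, and 5.24, 8.40 and 8.17 CPM at 48 h. In hid1 it held 17.0, 32.9 and 19.8 CPM at 12 h, 10.9, 15.3 and 16.1 CPM at 24 h, and 35.0, 40.2 and 32.4 CPM at 48 h. The WT libraries fell from 12 to 24 h, and hid1 overlapped WT at 12 h but not later. The change of STS in WT from 24 to 48 h missed the threshold (0.45 ± 0.23, adjusted p = 0.074) and passed it with DESeq2 (0.56, adjusted p = 0.00739), with the scaling of DESeq2 in edgeR (0.0274), with no filter on low counts (0.0221), with the replicate block (0.0218), and when either the second WT library at 24 h (0.0490) or the first at 48 h (0.0139) was left out. The phyB libraries held 6.86, 8.15 and 6.43 CPM at the label 12 h, 78.3, 81.1 and 77.4 CPM at the label 24 h, and 242, 256 and 266 CPM at 48 h. STS in hid1 was 1.41 ± 0.22 above WT at 24 h (adjusted p = 3.2e-05) and 2.31 ± 0.18 above at 48 h, or 4.96-fold. In phyB at 48 h it was 5.14 ± 0.18 above WT, or 35.2-fold. Its phyB differences from WT were -1.97 ± 0.20 and 3.89 ± 0.19 at the labels 12 h and 24 h, and 1.50 and 0.43 (adjusted p = 0.125 at 24 h) with the labels exchanged. STS in hid1 missed the threshold at 12 h (-0.27 ± 0.17, adjusted p = 0.32), and without hid1 replicate 2, the highest of the 3, it was -0.60 (adjusted p = 0.00807).

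Seed identity transcripts were higher together with these 3 genes at 48 h, 7 of 7 in hid1 and 7 of 7 in phyB against WT. The summed level of 7 such transcripts, storage proteins, oleosins and late embryogenesis proteins, all of them tested, was 50357 to 58513 CPM in WT at 12 h, 8975 to 12258 CPM at 24 h and 6175 to 10696 CPM at 48 h. In hid1 it was 46549 to 74942, 18807 to 22014 and 41113 to 52933 CPM at the same times, and in phyB 12869 to 14029, 64826 to 70914 and 280665 to 325503 CPM. The 6 endosperm markers, all tested, were called higher in hid1 than in WT at 48 h, while in phyB 4 were higher and 2, EXPA2 and MAN7, lower. They summed to 758 to 923 CPM in WT, 3075 to 3232 CPM in hid1 and 14234 to 16706 CPM in phyB at 48 h, most of it from EPR1 (means of 679, 2545 and 15308 CPM). Of the 7 markers of embryo meristem and epidermis 1 was higher and 3 were lower in hid1 than in WT at 48 h (median -0.19), and 0 were higher and 6 lower in phyB. These summed to 1313 to 1761 CPM in WT, 775 to 848 CPM in hid1 and 340 to 370 CPM in phyB, with PDF1 alone at means of 1105, 392 and 29.1 CPM. Of 7 seed coat markers 2 were tested, and these summed to 1.20 to 5.74 CPM over all libraries. The part of these transcripts in the results on GOLS1, GOLS2 and STS was not tested.

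The sequences before these genes are shown because GOLS1, GOLS2 and STS moved together at 48 h. Those of RS5 and AGAL2 are shown as the genes furthest below WT in phyB at 48 h, where those 3 were higher. SIP1, SIP2 and AGAL1 were also lower there (-3.18, -0.60 and -0.49), and their sequences are not printed. Each is the 250 bases before the annotated gene start, 5′ to 3′ on the strand of the gene, from the RefSeq annotation of TAIR10.1. Capitals mark matches on either strand to ACGTG (the core of the G-box and of ABA response elements), CATGCA (the core of the RY element of seed genes) and GAANNTTC (a pair of heat shock element units).
GOLS1, chr2:19370479-19370728, minus strand: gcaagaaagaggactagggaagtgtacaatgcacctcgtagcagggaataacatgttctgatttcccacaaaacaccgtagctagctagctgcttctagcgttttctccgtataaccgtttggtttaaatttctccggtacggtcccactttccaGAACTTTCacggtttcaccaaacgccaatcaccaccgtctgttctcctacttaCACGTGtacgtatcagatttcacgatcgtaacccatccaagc
GOLS2, chr1:21207287-21207536, plus strand: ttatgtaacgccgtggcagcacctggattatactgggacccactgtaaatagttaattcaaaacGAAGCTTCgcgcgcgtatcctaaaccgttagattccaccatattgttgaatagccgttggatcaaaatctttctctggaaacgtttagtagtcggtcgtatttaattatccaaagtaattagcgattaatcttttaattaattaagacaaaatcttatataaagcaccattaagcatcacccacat
STS, chr4:857402-857651, minus strand: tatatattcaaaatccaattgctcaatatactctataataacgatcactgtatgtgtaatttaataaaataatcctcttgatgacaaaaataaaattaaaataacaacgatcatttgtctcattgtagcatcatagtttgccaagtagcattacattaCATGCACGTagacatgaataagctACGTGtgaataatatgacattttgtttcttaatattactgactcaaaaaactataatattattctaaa
RS5, chr5:16161199-16161448, plus strand: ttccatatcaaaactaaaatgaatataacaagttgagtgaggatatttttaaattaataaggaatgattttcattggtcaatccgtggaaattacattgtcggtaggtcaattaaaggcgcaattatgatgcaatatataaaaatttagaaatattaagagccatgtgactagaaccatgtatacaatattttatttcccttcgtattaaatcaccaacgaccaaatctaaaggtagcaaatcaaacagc
AGAL2, chr5:2693586-2693835, minus strand: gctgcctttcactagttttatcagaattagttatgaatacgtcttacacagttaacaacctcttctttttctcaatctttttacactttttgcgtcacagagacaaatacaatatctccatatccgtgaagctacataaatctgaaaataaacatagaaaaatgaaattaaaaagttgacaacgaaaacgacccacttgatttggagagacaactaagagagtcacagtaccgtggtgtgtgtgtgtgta

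GOLS1 held the palindrome CACGTG at 42 to 37 bases before its start, which gives 2 overlapping matches to ACGTG, and a match to GAANNTTC at 95 to 88 bases. GOLS2 held a match to GAANNTTC at 186 to 179 bases. STS held ACGTG at 88 to 84 and at 68 to 64 bases, the former overlapping a match to CATGCA at 92 to 87 bases. SIP1 held 2 separate matches to ACGTG and SIP2 the palindrome, while the windows of RS5, AGAL1 and AGAL2 held none of the 3 motifs. Genes lower in phyB than in WT at 48 h were thus found both with matches (SIP1 and SIP2) and without. Among 27443 protein-coding genes, 22.9% of windows of this length held ACGTG, 8.43% held CATGCA and 9.55% held GAANNTTC. A match is a description of letters and not a binding site, and these data hold no measurement of binding.

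**Figure D2:**
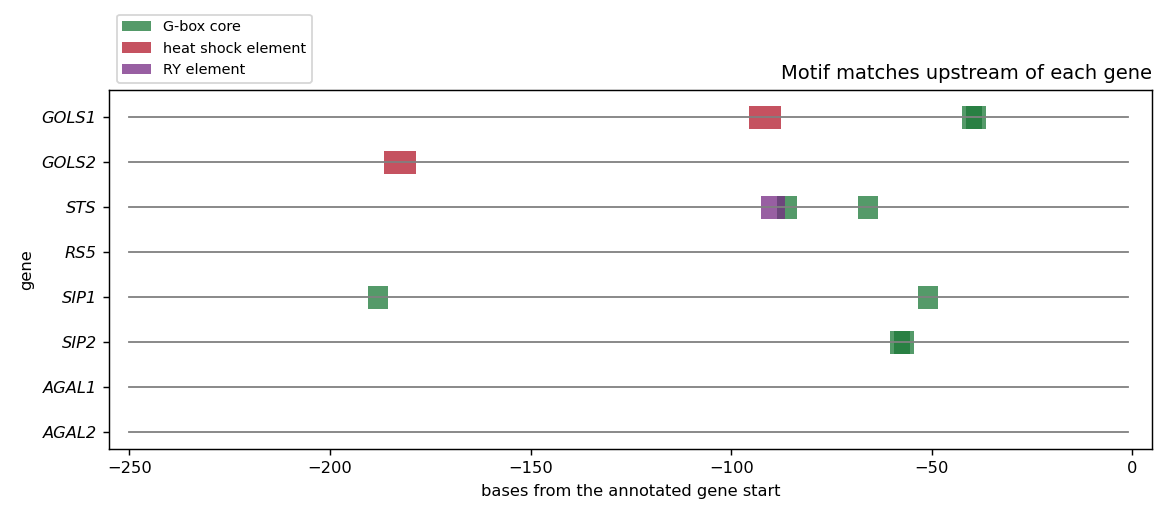
Positions of motif matches in the 250 bases before the annotated start of each gene, with the start at the right end of the axis. Green marks the G-box core ACGTG (darker where 2 matches overlap), red the heat shock element GAANNTTC and purple the RY core CATGCA; RS5, AGAL1 and AGAL2 hold none.

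RS5 was lower in both mutants than in WT at 48 h, where the other synthase genes were higher. RS5 (AT5G40390, chromosome 5, bases 16161449 to 16165453, plus strand) encodes the raffinose synthase known in Arabidopsis for the raffinose that leaves make under stress. The deposited table gives this locus the symbol SIP1, which it also gives to AT1G55740, so the genes are told apart here by their locus names. In WT it held 0.355, 0.171 and 0.760 CPM at 12 h, 1.18, 1.11 and 1.10 CPM at 24 h, and 56.7, 52.2 and 51.2 CPM at 48 h. In hid1 it held 0.341, 0.286 and 0.544 CPM at 12 h, 1.55, 1.70 and 2.02 CPM at 24 h, and 6.28, 6.07 and 5.23 CPM at 48 h. All groups were near the lower end at 12 h and overlapped, and at 48 h the 3 genotypes were apart, with WT above hid1 and hid1 above phyB. In phyB the libraries held 0.392, 0.344 and 0.398 CPM at the label 12 h, 0.683, 0.666 and 0.363 CPM at the label 24 h, and 0.752, 1.20 and 1.39 CPM at 48 h. RS5 rose in WT from 24 to 48 h by 5.55 ± 0.14, or 47.0-fold (adjusted p = 3.0e-22), and in hid1 by 1.74 ± 0.17, or 3.34-fold. At 48 h it was 9.08-fold lower in hid1 than in WT (-3.18 ± 0.11, adjusted p = 2.0e-19) and 47.7-fold lower in phyB (-5.58 ± 0.16, adjusted p = 1.7e-22).

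Smaller differences of RS5 rest on few counts. Its rise in phyB from 24 to 48 h (0.96 ± 0.33, adjusted p = 0.013) was lost without phyB replicate 3 at 24 h (adjusted p = 0.0807) or at 48 h (adjusted p = 0.0895), and when scaled by total counts (adjusted p = 0.213). Its lower level in phyB than in WT at the label 24 h (-0.98 ± 0.30, adjusted p = 0.006) was lost without phyB replicate 3 (adjusted p = 0.0509), and with the labels exchanged it was -1.57. In WT its rise from 12 to 24 h was 1.40 ± 0.32, and 2.05 without WT replicate 3 at 12 h.

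**Figure D3:**
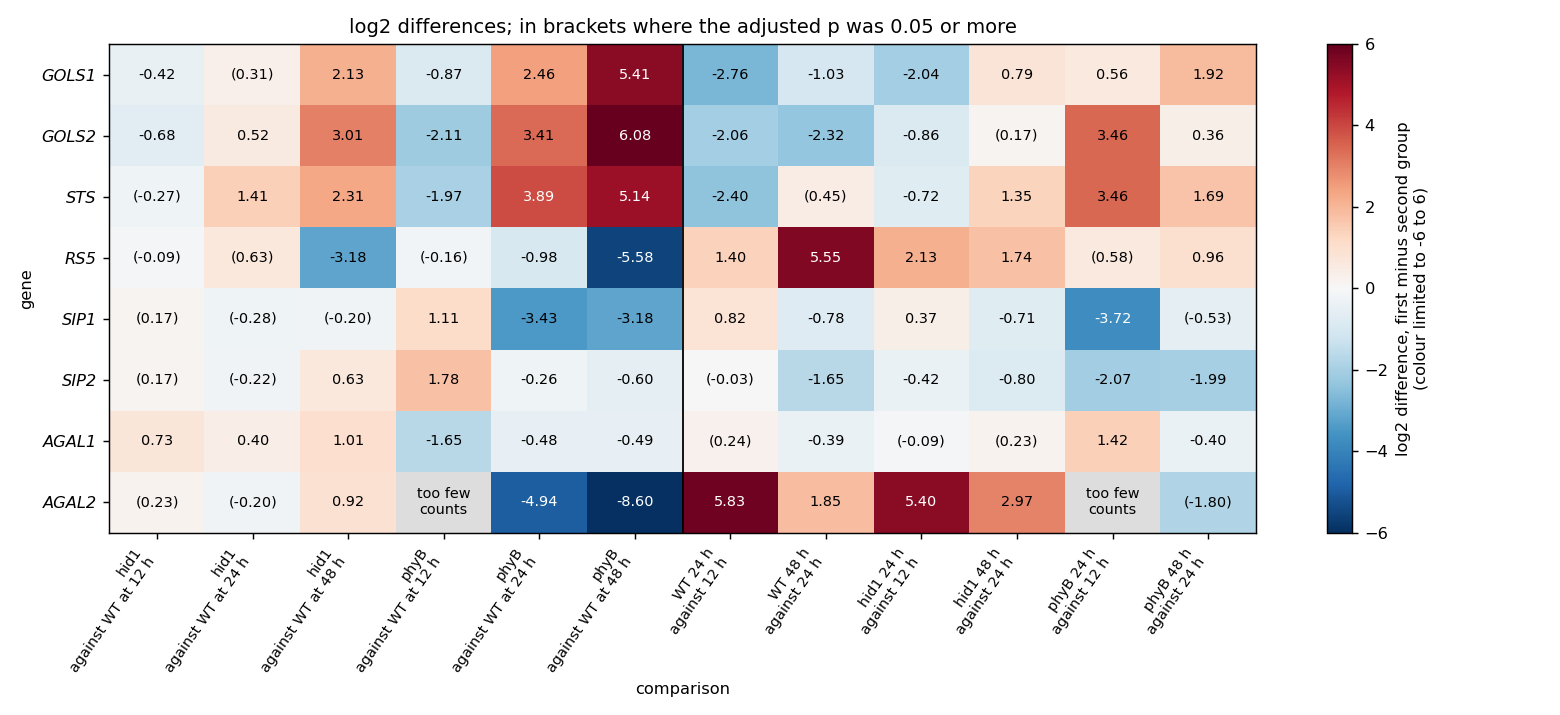
Differences (log2, first minus second group) of the 8 genes in 12 comparisons, with values in brackets where the adjusted p was 0.05 or more; grey cells mark comparisons against the 2 counts of AGAL2 in phyB labelled 12 h, and columns that use phyB at 12 h or 24 h follow the labels. At 48 h GOLS1, GOLS2 and STS were higher in both mutants than in WT, RS5 was lower in both, and AGAL2 was higher in hid1 (0.92) and lower in phyB (-8.60).

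The seed imbibition gene SIP1 as labelled separated phyB from the other genotypes more than hid1 from WT. With TMM scaling SIP2 did so at the label 12 h only. At the label 24 h SIP2 was -0.26 ± 0.08 from WT in phyB and -0.22 ± 0.08 in hid1. Between hid1 and phyB it was then 0.04 ± 0.08 (adjusted p = 0.69). SIP2 (AT3G57520, chromosome 3, bases 21288742 to 21293171, minus strand) held 506, 431 and 539 CPM in WT at 12 h, 497, 464 and 485 CPM at 24 h, and 161, 141 and 157 CPM at 48 h. The hid1 libraries held 559.5, 503 and 597 CPM at 12 h, 402, 397 and 439 CPM at 24 h, and 239, 232 and 242 CPM at 48 h. SIP2 thus stayed high until 24 h in WT (-0.03 ± 0.08 from 12 to 24 h, adjusted p = 0.78, and 0.25 with adjusted p = 0.0207 when scaled by total counts) and fell by 1.65 ± 0.09 from 24 to 48 h. In hid1 its fall from 12 to 24 h (-0.42 ± 0.08) did not pass the test when scaled by total counts (-0.18, adjusted p = 0.0991). In phyB it held 1687, 1547 and 1824 CPM at the label 12 h, 404, 398 and 402 CPM at the label 24 h, and 112, 99.99 and 90.2 CPM at 48 h. At the label 12 h phyB lay 1.78 ± 0.09 above WT, or 3.43-fold, and with the labels exchanged the difference was -0.29 at 12 h and 1.81 at 24 h. At 48 h hid1 was 0.63 ± 0.08 above WT (adjusted p = 1.3e-07) and phyB fell below WT (-0.60 ± 0.09, adjusted p = 2.6e-07). Scaled by total counts, SIP2 at 48 h was 0.62 from WT in hid1 and -1.29 in phyB, so phyB then lay further from WT than hid1.

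SIP1 (AT1G55740, chromosome 1, bases 20835256 to 20838778, minus strand) did not pass the test between hid1 and WT at any time, with differences of 0.17 ± 0.12, -0.28 ± 0.12 and -0.20 ± 0.12 at 12, 24 and 48 h. The hid1 libraries of SIP1 nevertheless all lay below those of WT at 24 h and at 48 h. It was called lower in hid1 at 24 h with no filter on low counts (adjusted p = 0.0298) or with the 2 groups fitted alone (0.00682), and at 48 h with the scaling of DESeq2 (0.0408) or with no filter (0.0484). Its WT libraries held 26.4, 18.9 and 27.7 CPM at 12 h, 47.7, 39.8 and 41.4 CPM at 24 h, and 25.3, 23.9 and 25.8 CPM at 48 h. The hid1 libraries lay between 19.9 and 36.6 CPM over the 3 times. The phyB libraries held 55.8, 55.1 and 46.3 CPM at the label 12 h, 3.91, 4.11 and 3.87 CPM at the label 24 h, and 2.26, 2.33 and 3.62 CPM at 48 h. The level in phyB at 48 h was below every library of the other genotypes, 9.09-fold lower than in WT (-3.18 ± 0.18, adjusted p = 1.7e-15). The differences of phyB from WT at the labels 12 h and 24 h, 1.11 ± 0.12 and -3.43 ± 0.16, became -2.62 and 0.29 with the labels exchanged. The rise of SIP1 in hid1 from 12 to 24 h (0.37 ± 0.12, adjusted p = 0.0095) was lost without hid1 replicate 2 at 12 h (adjusted p = 0.106).

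The alpha-galactosidase genes AGAL1 and AGAL2 lie next to each other on chromosome 5, both on the minus strand, with 1083 bases between them and 0 genes in that gap, but their transcripts behaved differently. AGAL2 (AT5G08370, bases 2690879 to 2693585) held 10 counts over the 3 WT libraries at 12 h, then 10.3, 11.6 and 10.5 CPM at 24 h and 41.7, 33.3 and 42.6 CPM at 48 h. In hid1 it held 12 counts at 12 h, 9.50, 9.22 and 9.54 CPM at 24 h, and 74.2, 67.8 and 79.9 CPM at 48 h. Both genotypes thus switched from a few counts to a level that grew with time, and hid1 passed WT at 48 h with no overlap. The phyB libraries held 1, 1 and 0 counts at the label 12 h, 1, 13 and 3 counts at the label 24 h, and 1, 3 and 0 counts at 48 h. At 48 h AGAL2 was 0.92 ± 0.11 higher in hid1 than in WT, or 1.89-fold (adjusted p = 1.9e-08), and in phyB it was -8.60 ± 0.30 from WT, a fitted value that rests on the 4 counts of phyB and was -9.90 without phyB replicate 2. At the label 24 h phyB was -4.94 ± 0.29 from WT, and -6.39 without phyB replicate 2, the library with 13 counts, and with the labels exchanged it was -7.87.

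At 12 h the levels of AGAL2 were too low to order the genotypes. The 10 WT counts against the 2 of phyB gave a ratio of 4.63 (95% counting interval 0.986 to 43.4), and the 12 hid1 counts a ratio of 5.46 (1.21 to 50.2). The 17 phyB counts at the label 24 h against the 2 at the label 12 h gave 8.70 (2.07 to 77.6), an interval for counting error alone. That call was lost without phyB replicate 3 at 12 h (adjusted p = 0.0674) or replicate 2 at 24 h (adjusted p = 0.331).

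AGAL1 (AT5G08380, bases 2694669 to 2697781) varied least of the 8 genes, by 5.76-fold between the highest and lowest group mean. Its hid1 libraries held 45.0, 36.3 and 46.6 CPM at 12 h, 44.4, 40.0 and 36.2 CPM at 24 h, and 48.0, 48.2 and 45.4 CPM at 48 h. The WT libraries held 28.4, 20.1 and 28.7 CPM at 12 h, 29.8, 33.2 and 28.5 CPM at 24 h, and 22.3, 25.1 and 22.6 CPM at 48 h. At every time all 3 hid1 libraries lay above all 3 WT libraries. Of the 8 genes, AGAL1 was called higher in hid1 at all 3 times, by 0.73 ± 0.11, 0.40 ± 0.11 and 1.01 ± 0.11, and no other was. The call at 24 h (adjusted p = 0.011) was lost without WT replicate 1 (adjusted p = 0.0504), WT replicate 3 (0.0614) or hid1 replicate 1 (0.0852). In phyB the libraries held 7.51 to 8.90 CPM at the label 12 h, 19.6 to 23.8 CPM at the label 24 h and 14.6 to 18.4 CPM at 48 h, and AGAL1 was lower than in WT at all 3 times as labelled (-1.65 ± 0.13, -0.48 ± 0.11 and -0.49 ± 0.12). With the labels exchanged the call at 12 h was lost (-0.24, adjusted p = 0.0902) and the difference at 24 h was -1.90. Its fall in phyB from 24 to 48 h (-0.40 ± 0.13, adjusted p = 0.0075) was lost without phyB replicate 3 at 48 h (adjusted p = 0.0587), and with the labels exchanged the change was a rise of 1.02.

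The share of AGAL2 in the counts of both genes gives the same contrast within each library. It was 0.711 ± 0.265% in WT at 12 h, 26.2 ± 0.644% at 24 h and 62.5 ± 4.79% at 48 h. In hid1 it was 0.458 ± 0.349%, 19.1 ± 1.65% and 61.0 ± 2.66%. At 48 h the hid1 libraries overlapped those of WT in this share, although both genes were higher in hid1. In phyB the share stayed at or below 3.41% in every library.

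**Figure D4:**
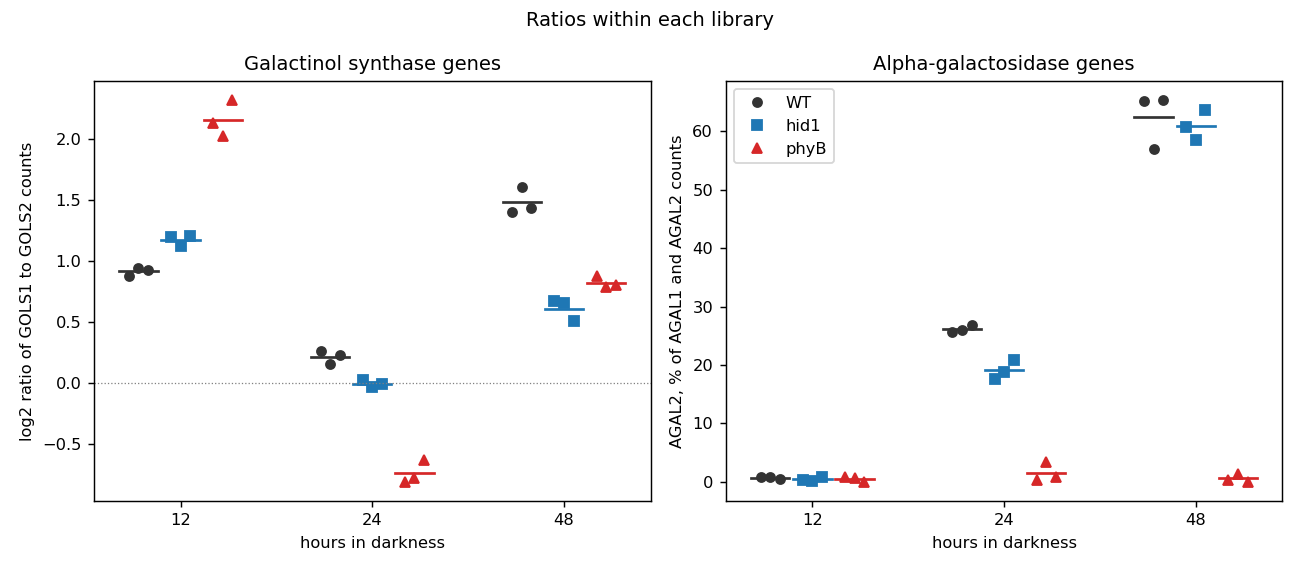
Ratios of counts within each of 27 libraries against hours in darkness; points are libraries and lines are means of 3. Left, the log2 ratio of GOLS1 to GOLS2, with a dotted line at equal counts, was below 0 in all libraries of phyB labelled 24 h (mean -0.74); right, AGAL2 as a percent of AGAL1 and AGAL2 counts reached means of 62.5% in WT and 61.0% in hid1 at 48 h.

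The order of the 9 groups differed by gene. Overlap here describes the ranges of the 3 libraries of each group and is no test, and some groups without overlap did not pass the test. For GOLS1, GOLS2 and STS phyB at 48 h was highest with no overlap with the next group, whereas WT at 48 h was lowest for GOLS1 and GOLS2 and WT at 24 h was lowest for STS. Neighbouring groups that overlapped were hid1 at 12 h and phyB labelled 24 h for GOLS1, and WT at 24 h and phyB labelled 12 h for GOLS2. For STS the overlapping neighbours were WT and hid1 at 12 h, and WT at 48 h and phyB labelled 12 h. For RS5 the 3 highest groups, WT at 48 h, hid1 at 48 h and hid1 at 24 h, were each clear of the next, and so was phyB at 48 h of phyB labelled 24 h, but the other neighbours overlapped. For AGAL2 the 4 highest groups, hid1 at 48 h, WT at 48 h, WT at 24 h and hid1 at 24 h, were each clear of the next, and the remaining 5 were not. Between hid1 and WT at 24 h, however, neither gene passed edgeR's test. The differences were -0.20 ± 0.15 for AGAL2 (adjusted p = 0.42) and 0.63 ± 0.23 for RS5 (adjusted p = 0.058). For SIP1 the overlaps were phyB labelled 12 h with WT at 24 h, and a run of hid1 at 12 h, WT at 48 h, WT at 12 h and hid1 at 48 h. For SIP2 they were the run of hid1 at 12 h, WT at 12 h and WT at 24 h, and hid1 at 24 h with phyB labelled 24 h. For AGAL1 the overlapping neighbours were the run of hid1 at 48 h, hid1 at 12 h and hid1 at 24 h, and the run of WT at 24 h, WT at 12 h, WT at 48 h and phyB labelled 24 h.

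Levels of different genes were compared per transcript length, with the FPKM values (fragments relative to transcript length and to library size) that the authors deposited as 1 mean per group, with no replicates. In these deposited means SIP2 was the highest of the 8 genes in every WT and hid1 group, at 164, 197 and 60.5 FPKM in WT and 183, 162 and 92.9 FPKM in hid1 at 12, 24 and 48 h. In phyB it went from 625 FPKM at the label 12 h to 25.0 FPKM at 48 h, where GOLS1 (187 FPKM), GOLS2 (101 FPKM) and STS (60.6 FPKM) stood above it in the authors' means. The sum of GOLS1 and GOLS2 in the authors' means was 125, 27.2 and 9.48 FPKM in WT, 87.0, 34.6 and 49.2 FPKM in hid1, and 61.3, 182 and 288 FPKM in phyB. Between groups these means can differ from the TMM-scaled levels. GOLS2 in phyB was 112 FPKM at the label 24 h and 101 FPKM at 48 h, although its TMM-scaled level rose. At 48 h in WT, by the same means, RS5 at 20.4 FPKM stood above STS at 2.80 FPKM, and in phyB the order was the reverse, with 0.266 FPKM of RS5.

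**Figure D5:**
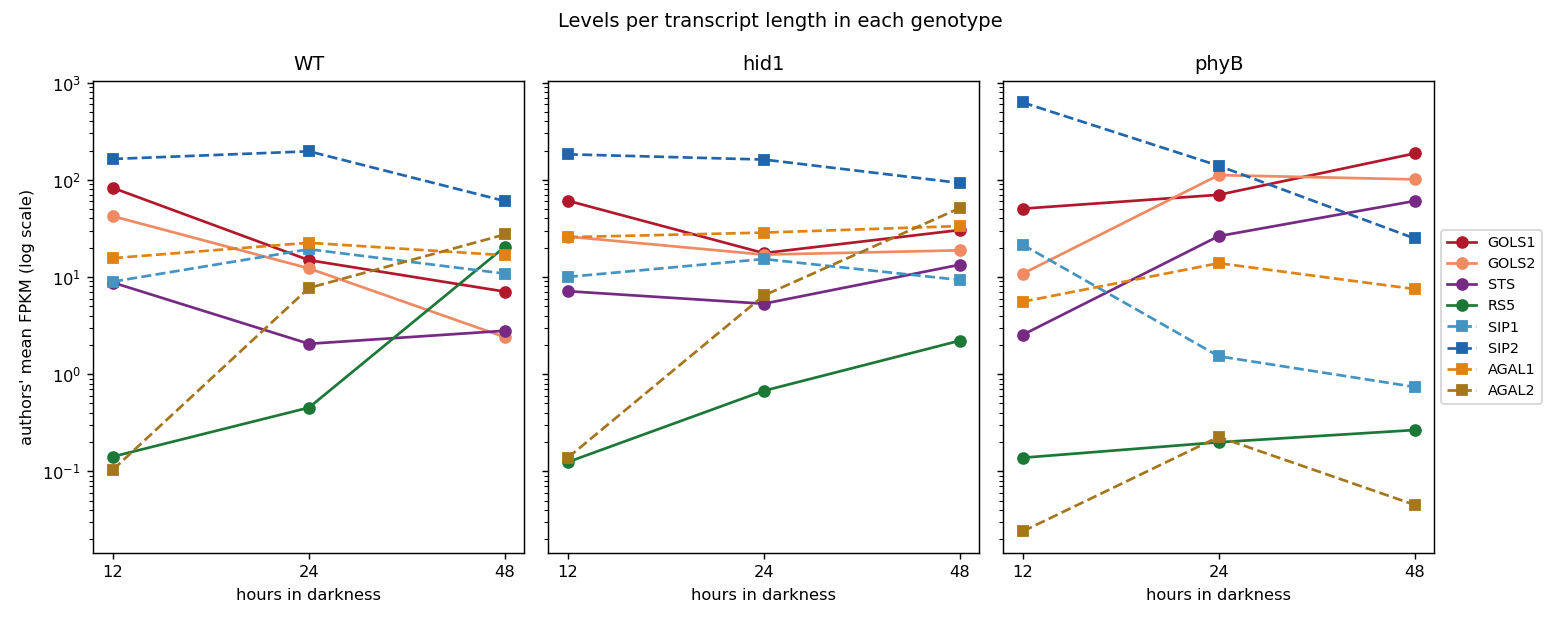
The authors' mean FPKM (log scale, 1 value per group, no replicates) of the 8 genes against hours in darkness in WT, hid1 and phyB; solid lines are synthase genes and broken lines are SIP and AGAL genes. In WT at 48 h SIP2 was highest at 60.5 FPKM, and in phyB at 48 h GOLS1 was highest at 187 FPKM.

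Genes around the pathway were followed in 4 lists, of 36 genes with 31 tested: paralogs, inositol supply, UDP-galactose and galactose use, and sucrose metabolism. At 48 h 9 of the 31 were higher in hid1 than in WT and 17 lower, and 12 were higher in phyB and 18 lower. Over all genes tested 36.3% were higher and 43.0% lower in hid1, and 40.0% and 49.4% in phyB. Of the 8 paralogs 4 were tested, and GOLS3, GOLS4, GOLS6 and GOLS7 held 11, 10, 0 and 13 counts over all libraries. GOLS10, another galactinol synthase gene, followed GOLS1 and GOLS2 at 48 h, at 0.302 ± 0.154 CPM in WT, 1.49 ± 0.309 CPM in hid1 and 24.4 ± 2.38 CPM in phyB (6.35 ± 0.21 above WT). GOLS5, the other galactinol synthase paralog tested, held 500 counts over all libraries. At 48 h it was called higher than in WT in phyB and was not called in hid1. DIN10, a raffinose synthase family gene known to be induced in darkness, held 432 ± 48.1 CPM in WT, 62.4 ± 4.51 CPM in hid1 and 1.09 ± 0.982 CPM in phyB at 48 h. DIN10 was thus in the same order as RS5, -2.79 ± 0.14 in hid1 and -8.65 ± 0.24 in phyB from WT.

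Inositol supply had members that ran in opposite directions. Of its 6 genes 1 was higher and 3 lower in hid1 than in WT at 48 h, and 2 higher and 3 lower in phyB, with medians of -0.38 and -1.27 against -0.06 and -0.24 over all genes. MIPS1 and MIPS2 encode inositol 3-phosphate synthases, which start the making of inositol. MIPS2 held 6.23 ± 1.51 CPM in WT, 19.0 ± 4.21 CPM in hid1 and 231 ± 13.3 CPM in phyB at 48 h, and MIPS1 held 149 ± 5.34 CPM in phyB against 20.3 ± 1.76 CPM in WT. MIPS1 was not called in phyB from the label 24 h to 48 h, and was not called higher in hid1 than in WT at 48 h. MIPS3, another gene of this kind, was counted mainly in WT at 48 h, at 57.3 ± 4.89 CPM, against 15 counts in hid1 and 1 count in phyB.

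Of the 15 genes of sucrose metabolism, 5 were higher and 9 lower in hid1 than in WT at 48 h, and 5 higher and 10 lower in phyB. The medians were -1.13 and -2.66. SUS3, a sucrose synthase gene, held 30.2 ± 5.77 CPM in WT, 264 ± 6.06 CPM in hid1 and 1057 ± 77.9 CPM in phyB at 48 h. The vacuolar invertase gene BFRUCT4 was at 136 ± 17.8 CPM in WT at 48 h, against 1.14 ± 0.465 CPM in hid1 and 8 counts over the phyB libraries. SPS3F, a sucrose phosphate synthase gene, was 2.76 ± 0.09 higher in hid1, and CINV1, a neutral invertase gene, was -3.98 ± 0.11 from WT in phyB. In the list of UDP-galactose and galactose use, 2 of 6 genes were higher and 3 lower in hid1, and 2 higher and 4 lower in phyB. UGE4, a gene of a UDP-glucose epimerase that makes UDP-galactose, held 43.3 ± 1.59 CPM in WT, 15.5 ± 0.935 CPM in hid1 and 15.7 ± 0.466 CPM in phyB. The 3 genes lower in hid1 were UGE4, USP and GALK, so the epimerase genes UGE1, UGE2 and UGE3 were not called lower there. UGE1, with 93895 counts over all libraries against 9707 of UGE4, was 1.48 ± 0.07 higher in hid1 than in phyB at 48 h.

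Other genes with the most similar pattern were found by Pearson's r of mean log2 CPM over the 9 groups, among 17475 genes whose group means span at least 1 on the log2 scale. With so many genes and 9 points a high r is common, and it is given as a description. For GOLS1 these were AT4G01000 (0.996), AT1G27750 (0.994) and DDL (0.993), and for GOLS2 AT3G04040 (0.991), emb2735 (0.991) and AT1G03270 (0.988). For STS they were AT4G34480 (0.988), AT4G28005 (0.985) and AT1G73020 (0.983), and for RS5 AT1G45010 (0.994), AT5G42860 (0.992) and PAM1 (0.992). For SIP1 they were AT5G51910 (0.966), AT5G65170 (0.964) and AT4G31210 (0.962), and for SIP2 AT4G36580 (0.986), AT3G02320 (0.982) and EIF3B-2 (0.981). For AGAL1 they were AT5G48500 (0.953), RIP2 (0.946) and AT2G15128 (0.944), and for AGAL2 AT3G21670 (0.994), SAMC2 (0.993) and AT2G43480 (0.991). Among the 8 genes themselves the largest r of either sign were -0.91 between STS and SIP1, 0.89 between GOLS1 and GOLS2 and 0.87 between GOLS2 and STS. Next came -0.81 between GOLS1 and AGAL2, 0.81 between GOLS1 and STS and 0.80 between RS5 and AGAL2.

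Counting limits differ between the genes. GOLS1 shares 43 bases with AT2G47170 on the other strand, a gene with 69538 counts over all libraries. AGAL2 shares 96 bases with AT5G08360, also on the other strand, with 1511 counts. Since no source used here gives the strand setting of the counting, reads in these shared bases cannot be told apart. The longest run of identical bases that any of the 8 genes shares with another of them or with a listed paralog was 26 bases. In phyB at 48 h storage transcripts take a large share of each library, and scaling by total counts moved the median difference of all genes from WT from -0.24 to -0.92. Under that scaling all 8 genes kept their direction and their call at 48 h, with differences of 4.73 for GOLS1, 5.40 for GOLS2, 4.46 for STS, -6.25 for RS5, -3.87 for SIP1, -1.29 for SIP2, -1.17 for AGAL1 and -9.24 for AGAL2.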

How the data were processed

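The authors sequenced poly(A) RNA of seeds as paired reads from TruSeq libraries, with 3 biological replicates for each of 9 groups. Per the submitters' processing notes, fastp, HISAT2 (2.1.0), SAMtools (1.6) and the TAIR10 genome were used. For the counting tool, strand setting, reads with several matches and annotation version: not given in the sources used here. Raw counts, as deposited, are whole numbers with no scaling, 1 column per library, and 0 columns belong to other series. The FPKM values were deposited by the authors as 1 mean per group, and no test rests on them. Positions and sequences were read from RefSeq's TAIR10.1, without conversion.

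Of 33612 rows 5633 had no count. Tests used edgeR 4.0.16 (with limma 3.58.1 in R 4.3.3), TMM scaling, filterByExpr and 1 quasi-likelihood model of the 27 libraries, in which every group had its own coefficient (18 residual degrees of freedom). P values were two-sided and adjusted by Benjamini-Hochberg over 20465 genes within each of 19 comparisons, with a threshold of 0.05. The script was tested on simulated data. The 8 genes are named in every comparison, with up to 3 members of smallest p from each related list and the 3 genes of highest r for each of the 8, and not every value is printed. The 8 genes, the lists and the tests were chosen with earlier results of these data known. Alternatives were DESeq2 1.42.0, its scaling alone, total-count scaling, no filter on low counts, fits of the compared groups alone, a replicate block, leaving out each library, and exchanged labels of phyB at 12 h and 24 h. Between replicates of a group (27 pairs), the spread was 2.04 to 19.6 times that of counting, so no library was taken as a duplicate. Counting intervals are at 95% and cover counting error only.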

Additional observations from a re-analysis of the deposited data

Results flagged for a closer look

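Changes with time in the difference of a mutant from WT are from edgeR's test of the interaction itself. They are in log2 units with adjusted p values over all genes tested. For hid1, 3 of the 8 genes changed upward and 1 downward from 12 to 24 h (6.77% and 7.15% of all genes). From 24 to 48 h 6 and 1 did (30.5% and 32.1%). For phyB the counts were 4 and 2 from 12 to 24 h as labelled (30.3% and 31.3%). From 24 to 48 h they were 3 and 3 (35.4% and 36.5%). From 12 to 24 h the hid1 difference changed by 0.73 ± 0.15 for GOLS1 (adjusted p = 0.0013), 1.20 ± 0.13 for GOLS2, 1.68 ± 0.28 for STS and -0.39 ± 0.12 for SIP2. The call of SIP2 (adjusted p = 0.024) was lost without any 1 of 6 libraries: WT replicate 2 (adjusted p = 0.0817) and hid1 replicates 1 (0.0505) and 3 (0.0859) at 12 h, and WT replicate 1 (0.0640) and hid1 replicates 1 (0.0544) and 2 (0.0674) at 24 h. From 24 to 48 h it changed by 1.82 ± 0.16 for GOLS1, 2.48 ± 0.16 for GOLS2, 0.90 ± 0.29 for STS, -3.82 ± 0.26 for RS5, 0.86 ± 0.12 for SIP2, 0.62 ± 0.15 for AGAL1 and 1.12 ± 0.18 for AGAL2. Of the 3 hid1 differences of GOLS1 and GOLS2, that at 12 h was below 0 and those at 24 and 48 h were above.

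From 12 to 24 h as labelled, the phyB difference changed by 3.33 ± 0.15 for GOLS1, 5.52 ± 0.13 for GOLS2, 5.86 ± 0.28 for STS, -4.54 ± 0.20 for SIP1, -2.04 ± 0.12 for SIP2 and 1.17 ± 0.18 for AGAL1. With the labels of phyB exchanged the sign of 5 of these turned, as given below. From 24 to 48 h it changed by 2.95 ± 0.16 for GOLS1, 2.68 ± 0.15 for GOLS2, 1.24 ± 0.27 for STS, -4.60 ± 0.44 for RS5, -0.34 ± 0.12 for SIP2 and -3.65 ± 0.87 for AGAL2. The value of SIP2 was lost without phyB replicate 3 at 48 h (adjusted p = 0.0582), and that of AGAL2 without phyB replicate 2 at 24 h (-2.22, adjusted p = 0.0938) and with the labels exchanged (-0.73, adjusted p = 0.783).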

How the results depend on the processing

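Of the counts of the 8 genes called in each comparison, 1 moved by more than 1.5 times under an alternative other than leaving out a library: hid1 against WT at 24 h went from 3 to 5 genes with no filter on low counts and to 7 when the 2 groups were fitted alone. Leaving out each library gave 6 to 7 genes for WT from 12 to 24 h, 7 to 8 for WT from 24 to 48 h, 6 to 7 for hid1 in both steps, 6 to 7 and 5 to 7 for phyB, 3 to 4, 2 to 3 and 7 for hid1 against WT at 12, 24 and 48 h, 6, 7 to 8 and 8 for phyB against WT, and 8 for hid1 against phyB at 48 h. For the interactions it gave 3 to 5 and 7 for hid1, and 6 to 7 and 5 to 6 for phyB.

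Replicate numbers were checked for pairing: of 27 same-numbered pairs of groups, 7 had correlated deviations over 0.1 (range -0.0965 to 0.294). These values do not settle whether same-numbered samples share a batch, and the labels do not say that they do. With the replicate block STS passed the test in WT from 24 to 48 h (0.44, adjusted p = 0.0218) and SIP2 in hid1 against WT at 24 h (-0.22, adjusted p = 0.0266), and no call was lost.

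With the labels 12 h and 24 h of phyB exchanged, the phyB change from 12 to 24 h was by construction the reverse, at -0.56 for GOLS1, -3.46 for GOLS2, -0.58 for RS5, -3.46 for STS, 3.72 for SIP1, 2.07 for SIP2, -1.42 for AGAL1 and -2.93 for AGAL2 (fitted on 2 counts). From 24 to 48 h AGAL1 gave 1.02 and AGAL2 1.13, and SIP1, at -4.25, gained a call. Against WT at 12 h GOLS2 gave 1.35, RS5 0.42, STS 1.50, SIP1 -2.62, SIP2 -0.29 and AGAL2 0.89, and at 24 h GOLS2 -0.053, SIP1 0.29 and SIP2 1.81. For hid1 against phyB at 12 h GOLS1 gave -0.12, GOLS2 -2.03, RS5 -0.51, STS -1.77, SIP1 2.78, SIP2 0.46 and AGAL2 -0.66, and at 24 h GOLS2 0.58, STS 0.98, SIP1 -0.56 and SIP2 -2.03. The change of the phyB difference from 12 to 24 h was -1.40 for GOLS2, -1.07 for STS, 2.90 for SIP1, 2.10 for SIP2 and -1.66 for AGAL1, and from 24 to 48 h -3.47 for SIP1 and 1.40 for AGAL1. Without a change of sign, calls were lost for AGAL1 (-0.24) against WT at 12 h, STS (0.43) against WT at 24 h and AGAL2 (-0.73) in the change of the phyB difference from 24 to 48 h, and gained for RS5 (-1.99) and AGAL2 (-8.76) in that from 12 to 24 h.

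Other changes of sign were of values that did not pass the test as reported, apart from GOLS2 in phyB from 24 to 48 h. With total-count scaling SIP2 in WT from 12 to 24 h was 0.25, AGAL1 in hid1 from 12 to 24 h 0.15, GOLS2 in phyB from 24 to 48 h -0.13, RS5 in hid1 against phyB at 12 h -0.091 and SIP1 in the phyB interaction from 24 to 48 h -0.20. With no filter SIP2 in WT from 12 to 24 h was 0.037. Leaving out 1 library gave -0.12 to 0.042 for SIP2 in WT from 12 to 24 h, -0.45 to 0.56 for RS5 and -0.66 to 0.64 for AGAL2 in hid1 against WT at 12 h, -0.52 to 0.48 for RS5 in phyB against WT and -0.26 to 0.25 in hid1 against phyB at 12 h, and -0.0040 to 0.069 for SIP2 in hid1 against phyB at 24 h. For the change of a mutant difference it gave -0.84 to 0.46 for AGAL2 in hid1 from 12 to 24 h, and from 24 to 48 h -0.0031 to 0.13 for SIP1 in hid1, -0.0039 to 0.38 for SIP1 in phyB and -0.096 to 0.076 for AGAL1 in phyB. The cause was not tested. Leaving out the phyB libraries labelled 12 h and 24 h, an alternative chosen after seeing the data, changed no call or direction in the comparisons that remain. Fitting the compared groups alone gave no value for RS5 and AGAL2 in comparisons whose groups hold too few of their counts. Depth limits the genes with few counts, RS5 and AGAL2 before 48 h and AGAL2 in phyB.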
